A study of Mus musculus with 6 samples.

Results

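The genes described here are 47 mouse genes of the cell cycle, 24 listed for G1/S, the passage from growth into DNA replication, and 23 for G2/M, the passage into and through mitosis. They were picked by name, and a probe was assigned to a gene through the RefSeq accession it was designed for. In all, 62 probes on the array belonged to these 47 genes, out of 20648 genes that a probe could name. Expression was measured in spheres, free-floating cell clusters in serum-free culture, grown from mammary tumors that arose in FRS2beta heterozygous mice (hetero, 3 arrays) or FRS2beta knock-out mice (knockout, 3 arrays). FRS2beta is a scaffold that binds activated receptor tyrosine kinases. The medium of both genotypes was DMEM/F12 with B27, 20 ng/mL each of EGF and bFGF, and 2 mg/mL of heparin. The tumor model, strain and age of the mice are not given in the sources used here, nor is whether the replicates came from separate animals or cultures. Each p-value is thus set against the spread of these samples alone, and that spread may be technical.

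Cells that commit to divide switch on their cell cycle genes in waves. At G1/S, E2F transcription factors released from the retinoblastoma protein RB drive genes for loading and firing the replicative helicase, for making deoxynucleotides and for copying DNA and chromatin. In G2 and mitosis, a later wave driven by the MuvB core with B-MYB and by FOXM1 raises the mitotic cyclins, kinases, checkpoint proteins and spindle motors, and the same MuvB core, within the DREAM complex, represses these genes in resting cells. The RNA level of both waves in a bulk sample is widely read as a mark of how many of its cells are cycling, and fewer cycling cells and less RNA per cell cannot be told apart in such a sample.

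The known promoter elements of the 2 waves differ, and they were looked for in windows of 300 bases, 250 before to 50 after the transcription start (RefSeq, GRCm38.p6). Such a window was found for 39 of the 47 genes, 42 windows in all. Mcm4, Ccne2, Gins2, Ccna2, Aurkb, Kif20a, Tpx2 and Foxm1 had no entry. The motifs were E2F (TTTCCCGC, TTTGGCGC, TTTCGCGC or TTTGCCGC), CHR, the cell cycle homology region bound by MuvB (TTTGAA or TTCGAA), and the CCAAT box bound by NF-Y, each on both strands. In the windows of the 39 genes, 1 pair of matches of different motifs overlapped. The windows below show the 160 bases before the start of 3 G1/S and 4 G2/M genes, chosen after the matches were seen, with every match in capitals. The first 3 hold CCAAT boxes without a CHR, with E2F matches in Mcm5 and Mcm6, and the other 4 hold both a CHR and CCAAT boxes.
Mcm5: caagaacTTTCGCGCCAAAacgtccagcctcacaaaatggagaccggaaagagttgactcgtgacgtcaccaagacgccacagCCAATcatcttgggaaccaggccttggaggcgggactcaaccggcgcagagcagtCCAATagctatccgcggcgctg
Mcm6: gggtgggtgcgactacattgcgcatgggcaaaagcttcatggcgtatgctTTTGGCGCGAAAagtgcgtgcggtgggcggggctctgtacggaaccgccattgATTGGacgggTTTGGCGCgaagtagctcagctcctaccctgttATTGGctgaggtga
Rrm2: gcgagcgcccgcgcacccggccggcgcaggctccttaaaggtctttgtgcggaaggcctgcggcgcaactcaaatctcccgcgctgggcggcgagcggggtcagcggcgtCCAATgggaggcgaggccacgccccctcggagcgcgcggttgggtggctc
Ube2c: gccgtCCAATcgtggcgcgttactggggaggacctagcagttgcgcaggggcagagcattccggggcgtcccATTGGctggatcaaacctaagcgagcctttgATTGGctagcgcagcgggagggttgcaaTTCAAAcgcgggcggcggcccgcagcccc
Cdc20: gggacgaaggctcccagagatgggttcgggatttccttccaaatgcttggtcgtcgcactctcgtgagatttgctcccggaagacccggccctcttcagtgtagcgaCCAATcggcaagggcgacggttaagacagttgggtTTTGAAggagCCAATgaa
Kif11: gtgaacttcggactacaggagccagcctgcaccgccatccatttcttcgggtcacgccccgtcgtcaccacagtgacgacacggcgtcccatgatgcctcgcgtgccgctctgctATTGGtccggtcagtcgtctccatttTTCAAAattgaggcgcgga
Cdk1: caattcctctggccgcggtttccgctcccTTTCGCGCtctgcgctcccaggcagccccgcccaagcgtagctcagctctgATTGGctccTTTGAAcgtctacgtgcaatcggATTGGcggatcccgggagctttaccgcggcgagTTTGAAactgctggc
These windows lie at chr8:75109349-75109508 (plus strand), chr1:128359706-128359865 (minus strand), chr12:24708094-24708253 (plus strand), chr2:164769769-164769928 (plus strand), chr4:118437344-118437503 (minus strand), chr19:37376222-37376381 (plus strand) and chr10:69352913-69353072 (minus strand).

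In Mcm5, which encodes a helicase subunit, 2 overlapping E2F matches began at -153 and -149, counted in bases from the start. Mcm6, another helicase subunit, held E2F matches at -110, -106 and -47. Rrm2 held a CCAAT box and none of the E2F letters searched. The CHR began at -29 in Ube2c, -18 in Cdc20, -19 in Kif11, and -71 and -15 in Cdk1, which also held an E2F match. Across the set, an E2F match stood in 8 of 24 G1/S windows (33.3%) and 1 of 18 G2/M windows (5.56%), against 2.26% of all 32851 promoters of this length. A CHR stood in 14 of 18 G2/M windows (77.8%) and 5 of 24 G1/S windows (20.8%), against 19.2% of all promoters. CCAAT was present in 88.9% of G2/M, 66.7% of G1/S and 37.4% of all windows. Mki67, which encodes the proliferation antigen Ki-67, was placed with G1/S by the order of the gene list, and its window held 2 CHR matches and 3 CCAAT boxes and no E2F match. A match is a run of letters and not a measured binding site.

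**Figure D1:**
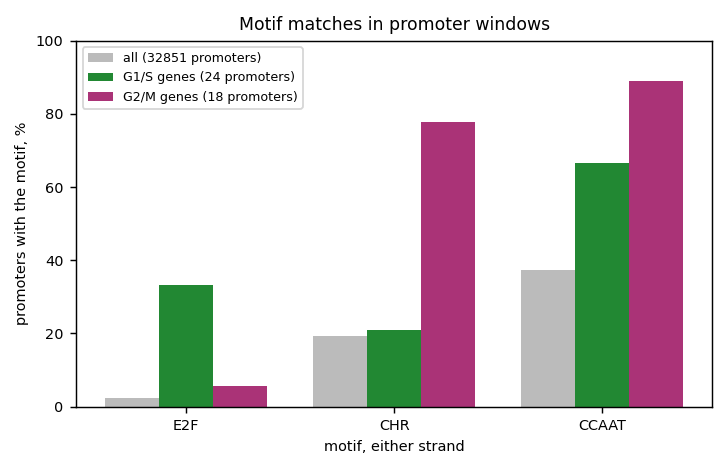
Share of promoter windows (vertical axis, percent) that hold an E2F, CHR or CCAAT match on either strand, for all 32851 promoters, 24 windows of G1/S genes and 18 windows of G2/M genes. CHR matches stand in 77.8% of the G2/M windows and 20.8% of the G1/S windows.

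All expression values are log2 processed signals relative to the 75th percentile of the same array, so 0 means a signal at that percentile. The level of a probe also depends on its sequence, so levels are compared between arrays and not between genes. The 75th percentile lay at a signal of 403.9 to 415.8 on hetero and 464.9 to 487.2 on knockout arrays, 60.4% to 69.6% of probes were well above background, and no spot was saturated. Of the 47 genes, 44 were well above background on all 6 arrays and were tested, 23 for G1/S and 21 for G2/M. The single probes for Ccne2 (a cyclin E), Aurkb (the Aurora B kinase) and Cenpf (a kinetochore protein) were below that limit on all 6 arrays (not well above background), and no fold is given for them. Knockout was compared with hetero with limma over 15838 genes, and a gene is called higher or lower at a Benjamini-Hochberg adjusted p below 0.05. By that rule 60.4% of all genes tested were called, 27.8% higher and 32.6% lower in knockout.

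The differences of the cell cycle genes were small, with G2/M genes higher in knockout spheres and G1/S genes in both directions. All 21 G2/M genes tested had a higher mean in knockout spheres, as did 45.2% of all genes, and 15 of them rose (71.4% called, all in this direction), and their median difference was 0.19 on the log2 scale (1.14-fold). Among these 21, Kif20a or Ttk, neither called, had a lower mean in knockout under 4 of 18 alternative settings. Of the 23 G1/S genes, 7 rose and 3 fell (43.5% called) and 13 did not pass, with a median of 0.04, or 1.03-fold. The median over all genes tested was -0.03. The share of G2/M genes that rose thus stood above the 27.8% of all genes, while the G1/S share of 30.4% was near it, and the 13.0% of G1/S genes that fell was below the 32.6% of all genes. The difference between the 2 groups of genes was not tested. Replicates 1 and 2 of both genotypes lay in row 1 of the slide and replicate 3 in row 2. Hetero replicates 1 to 3 lay in slide columns 1, 3 and 1, and knockout replicates 1 to 3 in columns 2, 4 and 2. No column held both genotypes, so effects of column and genotype cannot be told apart. Within row 1 alone, 8 of 21 G2/M genes passed (38.1%), against 48.6% of all genes called in either direction and 22.8% called higher. The G2/M median there was 0.20, and 20 of 21 differences were above 0. Row 2 held 1 array of each genotype and gives no test. With Mki67 counted among the G2/M genes, 16 of 22 G2/M genes rose, and 6 of 22 G1/S genes rose and 3 fell.

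The differences were small beside those of the array as a whole. The largest difference among the 44 genes was 1.34-fold, for Top2a, which did not pass, and the largest called was 1.28-fold, for Nusap1. The size of both differences depends on hetero replicate 1. Without that array Top2a differed by 0.11 and Nusap1 by 0.23 on the log2 scale, and Plk1 was the largest at 0.34. Nusap1 was still called without it (limma, adjusted p = 0.00699). None of the 44 was called with a fold of at least 2, as 1600 genes (10.1%) were. The median size of the difference, whatever its direction, was 0.19 for G2/M genes, 0.10 for G1/S genes and 0.22 for all genes. Every one of the 44 stayed below 0.5 log2 units, as did 76.8% of all genes.

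**Figure D2:**
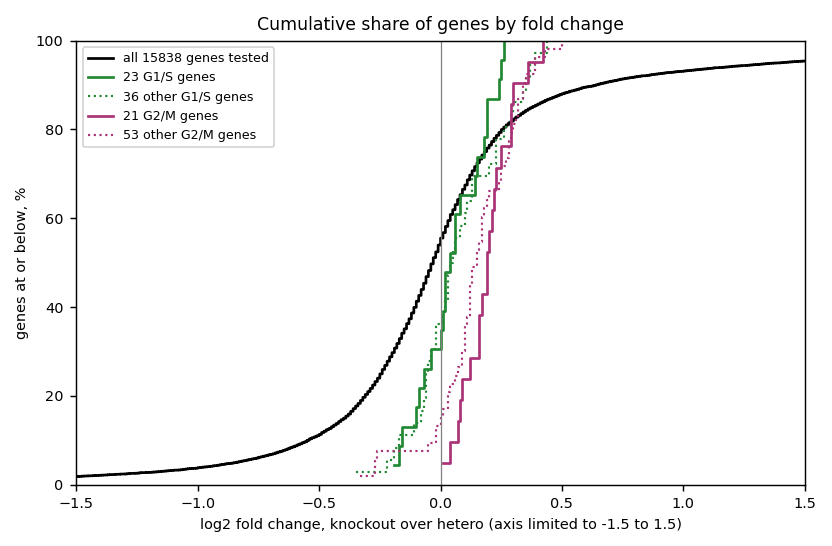
Cumulative share of genes (vertical axis, percent) against log2 fold change of knockout over hetero, for all 15838 genes tested, the 23 G1/S and 21 G2/M genes, and further genes of both waves. The G2/M line lies wholly to the right of 0, with a median of 0.19, and the G1/S line crosses 0, with a median of 0.04.

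Array by array, the shift of the G2/M genes did not rest on 1 pair of arrays. The mean over the 21 G2/M genes was 0.71, 0.75 and 0.77 on hetero replicates 1 to 3 and 0.91, 0.93 and 0.96 on knockout replicates 1 to 3. The mean over the 23 G1/S genes was 1.70, 1.64 and 1.65 on the hetero arrays and 1.71, 1.72 and 1.70 on the knockout arrays. The G2/M means of the genotypes were thus separated by more than their spread, and the G1/S means differed by less than 0.1 between any pair of arrays. The median signals per array were higher on knockout arrays for both groups of genes. For G1/S genes they were 2.4, 2.39 and 2.4 on the hetero and 2.56, 2.5 and 2.55 on the knockout arrays. For G2/M genes they were at most 1.06 on hetero and at least 1.1 on knockout arrays. Such a median is the signal of the middle gene, which can differ between arrays. For G1/S it was E2f1 on hetero replicate 1 and Ccne1 on knockout replicate 1, and Ccne1 itself was at 2.56 on both. These medians thus compare different genes. Taken gene by gene, the median G1/S difference was 0.04. In 18 of the 21 G2/M genes all knockout arrays lay above all hetero arrays, which held for 31.6% of all genes. The hetero and knockout ranges of the other 3 overlapped. Among the G1/S genes, 7 had all knockout arrays above and 4 all hetero arrays above (37.3% of all genes), and 12 overlapped.

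**Figure D3:**
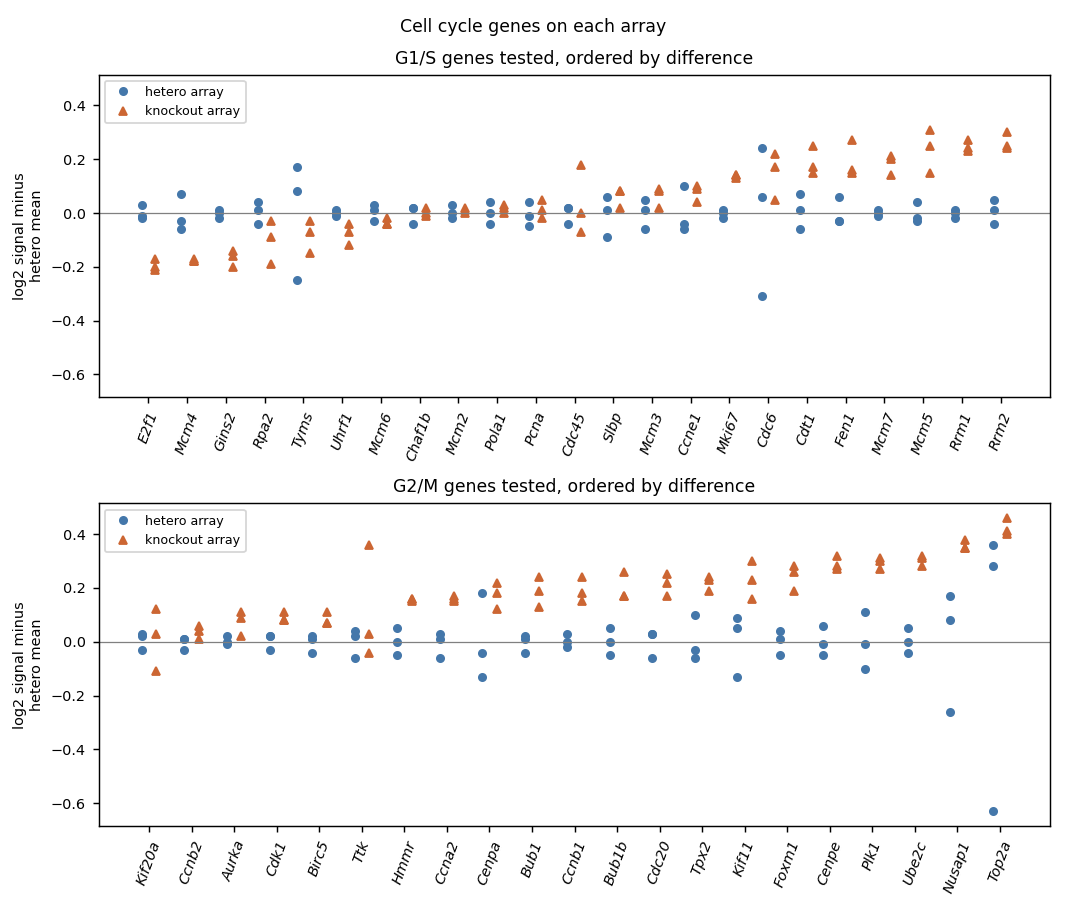
Log2 signal of each tested gene on each array minus the gene's mean over the hetero arrays (vertical axis), for 23 G1/S genes (top) and 21 G2/M genes (bottom), ordered by difference; circles are hetero and triangles knockout arrays. In 18 of the 21 G2/M genes the triangles lie above all circles, and hetero replicate 1 stands low for Top2a and Nusap1.

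Among the G1/S genes, those for loading and firing the replicative helicase went both ways. Of 10, 3 rose, 2 fell and 5 did not pass (median 0.05), and the 30.0% that rose was near the 27.8% of all genes. Mcm5 had signals of 1.27, 1.33 and 1.26 on the hetero arrays and 1.54, 1.44 and 1.60 on the knockout arrays. The groups did not overlap, and Mcm5 rose by 0.24 ± 0.05 (SE, n = 3 each, adjusted p = 0.00909). Mcm7, of the same ring of 6 MCM subunits, and Cdt1, which loads that ring onto origins, rose by 0.19 ± 0.03 and 0.18 ± 0.05. The call of Cdt1 was lost without hetero replicate 1 (adjusted p = 0.0515) or knockout replicate 2 (adjusted p = 0.0531). Mcm4, also a ring subunit, had 3.63, 3.50 and 3.53 on the hetero arrays and 3.38, 3.38 and 3.39 on the knockout arrays. All hetero arrays were above all knockout arrays, and Mcm4 fell by 0.17 (SE 0.04, n = 3 each, adjusted p = 0.0131). Gins2, of the complex that activates the helicase, fell by 0.16 (SE 0.03, adjusted p = 0.00326).

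The other ring subunits did not pass, at 0.01 for Mcm2 (95% interval -0.05 to 0.06, adjusted p = 0.854), 0.06 for Mcm3 (-0.03 to 0.16, adjusted p = 0.193) and -0.04 for Mcm6 (-0.10 to 0.03, adjusted p = 0.273). Under this scaling and for the spread of these arrays alone, these intervals leave room for differences of at most 0.16 log2 units. Over the 18 alternative settings the differences reached 0.42 for Mcm2, 0.48 for Mcm3 and 0.38 for Mcm6. Cdc6, the loader of the ring, differed by 0.15 (-0.22 to 0.53, adjusted p = 0.422) and Cdc45, a partner of the active helicase, by 0.04 (-0.14 to 0.22, adjusted p = 0.676). The subunits of 1 ring, which work together in equal numbers, thus split into 2 higher, 1 lower and 3 that did not pass.

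E2f1, the transcription factor that drives entry into S phase, fell. Its signal was 2.40, 2.35 and 2.36 on the hetero arrays and 2.20, 2.17 and 2.16 on the knockout arrays. The hetero arrays all lay above the knockout arrays, by a mean of 0.19 (SE 0.03, n = 3 each, adjusted p = 0.00156). Ccne1, the cyclin E partner of CDK2 at the start of S phase, differed by 0.08 (95% interval -0.05 to 0.21, adjusted p = 0.217), and its second, dimmer probe by -0.57 ± 0.78 (SE). Without hetero replicate 1 Ccne1 passed, at 0.13 (adjusted p = 0.0274).

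Of the 7 genes for nucleotide supply and the replication fork, 3 rose and none fell (median 0.02). The share that rose was 42.9%, beside 27.8% of all genes, and 32.6% of all genes fell. Both subunits of ribonucleotide reductase, the enzyme that makes deoxynucleotides, rose by nearly the same amount. Rrm2, the subunit limiting in S phase, had 2.82, 2.73 and 2.78 on the hetero arrays and 3.02, 3.01 and 3.07 on the knockout arrays. These ranges did not overlap, and Rrm2 rose by 0.26 ± 0.03 (SE, n = 3 each, adjusted p = 0.00146). Rrm1, the large subunit, rose by 0.25 ± 0.02 (adjusted p = 0.000343), and Fen1, the nuclease that trims Okazaki fragments, by 0.19 ± 0.05 (adjusted p = 0.0155). The sliding clamp gene Pcna differed by 0.02 (95% interval -0.07 to 0.11, adjusted p = 0.716) and the polymerase gene Pola1 by 0.02 (-0.05 to 0.09, adjusted p = 0.621). Tyms, thymidylate synthase, differed by -0.09 (-0.38 to 0.21, adjusted p = 0.545) and Rpa2, which coats single-stranded DNA, by -0.10 (-0.23 to 0.02, adjusted p = 0.126). Without hetero replicate 3 Tyms passed, at -0.21 (adjusted p = 0.0257), and without hetero replicate 1 Fen1 did not, at 0.18 (adjusted p = 0.0515).

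None of the 3 genes of histone supply and chromatin copying passed in limma, at an adjusted p of 0.275 for Slbp, 0.0741 for Uhrf1 and 0.918 for Chaf1b. The histone mRNA binding protein gene Slbp differed by 0.06, the maintenance methylation factor Uhrf1 by -0.07 and the chromatin assembly factor Chaf1b by 0.00. Uhrf1 reached an unadjusted p of 0.0477, and its hetero arrays all lay above its knockout arrays.

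Mki67 was 2.85, 2.82 and 2.84 on the hetero arrays and 2.98, 2.98 and 2.97 on the knockout arrays. The groups were separated by more than their spread, and Mki67 rose by 0.14 ± 0.02 (SE, n = 3 each, adjusted p = 0.0023), a 1.10-fold difference. A second Mki67 probe, fitted in a model over all probes, rose by 0.16 ± 0.03 (adjusted p = 0.011).

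Among the G2/M genes, the mitotic cyclins, kinases and FOXM1 had 5 of 7 genes that rose (71.4%, beside 27.8% of all genes, median 0.16). Plk1, the Polo-like kinase of mitotic entry and spindle function, had 2.07, 1.95 and 1.86 on the hetero arrays and 2.23, 2.26 and 2.27 on the knockout arrays. The knockout arrays lay close together and above every hetero array, and Plk1 rose by 0.29 ± 0.06 (SE, n = 3 each, adjusted p = 0.00753). Foxm1, the transcription factor of this wave, rose by 0.25 ± 0.04 (adjusted p = 0.00334), and its second probe differed by 0.11 ± 0.23 (adjusted p = 0.728). With both Foxm1 probes averaged the call was lost, at 0.18 (adjusted p = 0.202, and 3.28e-05 to 0.202 over 18 settings). The cyclins Ccnb1 and Ccna2, which activate CDK1 and CDK2, rose by 0.19 ± 0.03 and 0.16 ± 0.03. For Ccnb1, 2 dimmer probes rose as well, by 0.46 ± 0.06 and 0.34 ± 0.09. Cdk1, the kinase these cyclins activate in mitosis, rose by 0.08 ± 0.03 (adjusted p = 0.0362), a call lost in 15 of 18 alternative settings (adjusted p 3.04e-05 to 0.506). Cyclin Ccnb2 differed by 0.04 (95% interval -0.02 to 0.10, adjusted p = 0.211) and Aurora A, Aurka, by 0.07 (-0.01 to 0.15, adjusted p = 0.0945). Without knockout replicate 1 Aurka passed, at 0.10 (adjusted p = 0.0387).

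Genes of the spindle checkpoint and of the anaphase-promoting complex (APC/C), the ubiquitin ligase that the checkpoint restrains, rose in 4 of 5 cases (median 0.20). That is 80% of so few genes, beside 27.8% of all genes. Ube2c, which hands ubiquitin to the APC/C, had 1.80, 1.85 and 1.76 on the hetero arrays and 2.12, 2.08 and 2.11 on the knockout arrays. The ranges were far apart relative to their width, and Ube2c rose by 0.30 ± 0.03 (SE, n = 3 each, adjusted p = 0.000723), or 1.23-fold. Its second probe rose by 0.35 ± 0.04. Cdc20, the APC/C activator, rose by 0.21 ± 0.04, and the checkpoint kinase genes Bub1 and Bub1b by 0.19 ± 0.04 and 0.20 ± 0.04. The checkpoint kinase gene Ttk differed by 0.12 (95% interval -0.16 to 0.40, adjusted p = 0.385).

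At the centromere, Cenpe, a kinesin that aligns chromosomes, had 1.68, 1.64 and 1.75 on the hetero arrays and 1.97, 1.96 and 2.01 on the knockout arrays. The groups did not overlap, and Cenpe rose by 0.29 ± 0.04 (SE, n = 3 each, adjusted p = 0.00134). Birc5, survivin, rose by 0.09 ± 0.03 (adjusted p = 0.0383), a call lost in 11 of 18 settings (adjusted p 5e-05 to 0.203). Cenpa, the histone H3 variant that marks centromeres, differed by 0.17 (95% interval -0.04 to 0.39, adjusted p = 0.133). Without hetero replicate 3, which had the highest hetero signal, Cenpa passed, at 0.26 (adjusted p = 0.0108, and 0.000905 to 0.298 over 18 settings).

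Of the 6 genes of spindle motors, spindle assembly and chromosome structure, 4 rose (66.7%, beside 27.8% of all genes, median 0.22). Nusap1, which bundles spindle microtubules, had -0.23, 0.20 and 0.11 on the hetero arrays and 0.38, 0.38 and 0.41 on the knockout arrays. Hetero replicate 1 was the lowest, the knockout arrays were all higher than any hetero array, and Nusap1 rose by 0.36 ± 0.12 (SE, n = 3 each, adjusted p = 0.0408). Without hetero replicate 1 it rose by 0.23 (adjusted p = 0.00699), and its call was lost in 8 of 18 settings (adjusted p 0.00117 to 0.138). Tpx2, which nucleates spindle microtubules and activates Aurora A, rose by 0.22 ± 0.05, Kif11, the motor that separates spindle poles, by 0.23 ± 0.07, and Hmmr, another spindle assembly gene, by 0.16 ± 0.03. The call of Kif11 was lost in 10 of 18 settings (adjusted p 0.000411 to 0.247). When the 2 probes of Tpx2 were averaged it differed by 0.07 (adjusted p = 0.44). Top2a, the topoisomerase that untangles sister chromatids, had -0.29, 0.70 and 0.62 on the hetero arrays and 0.74, 0.75 and 0.80 on the knockout arrays. Its difference of 0.42 ± 0.28 (SE, n = 3 each, adjusted p = 0.238) rested on hetero replicate 1, without which it was 0.11 (adjusted p = 0.0827). Kif20a, a motor of cell cleavage, differed by 0.01 (95% interval -0.15 to 0.17, adjusted p = 0.899).

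**Figure D4:**
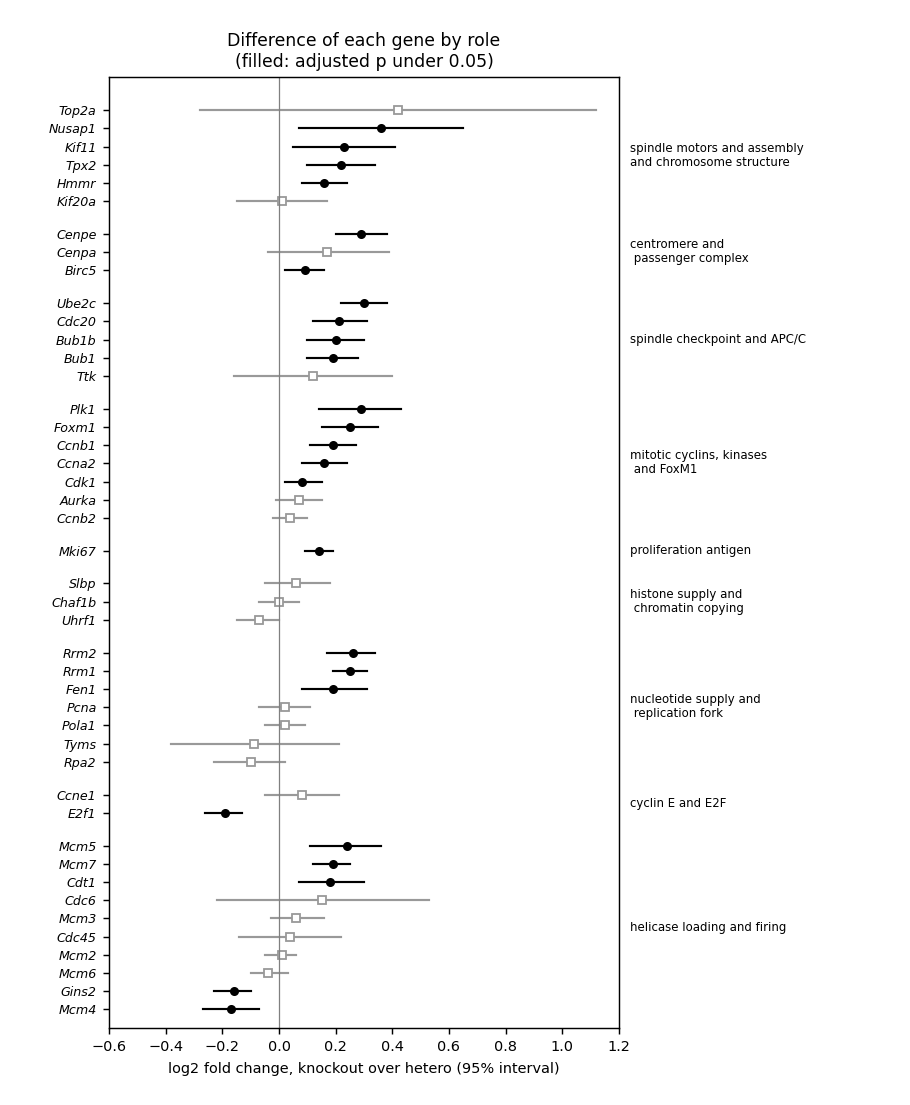
Log2 fold change of knockout over hetero with its 95% interval (horizontal axis) for each of the 44 tested genes, grouped by role; filled circles passed an adjusted p of 0.05 and open squares did not. The 4 mitotic roles lie at or to the right of 0, with Top2a the widest interval, while helicase genes run from -0.17 to 0.24.

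Where a gene had more than 1 probe, the probes could be set side by side. Of the 47 genes, 12 had several probes, with 14 further probes tested, of which 10 had the sign of the gene's brightest probe and 4 the opposite sign. The 4 further probes that passed on their own, of Mki67, Ccnb1 (2) and Ube2c, were all higher in knockout.

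Further genes of the same waves, from lists of known cell cycle genes chosen with earlier results of these arrays known, are described by the same counts. Of 53 other G2/M genes tested of 54, 28 rose and 3 fell (median 0.15), a share of 52.8% higher against 27.8% of all genes. Those with the smallest p were Lmnb1 and Tmpo, a lamin and a lamin-binding protein of the nuclear envelope, which fell by 0.27 and 0.26, and Ckap2l and Gtse1, both spindle-associated, which rose by 0.34 and 0.39 (SE 0.02, 0.02, 0.03 and 0.04). Cep55, of the final cut between daughter cells, was the third that fell, by 0.27, and is named after its value was seen. Of 36 other G1/S genes, 11 rose and 4 fell (median 0.04), a share of 30.6% higher. By smallest p these were led by the activator E2f2, which rose by 0.39 ± 0.03, the helicase gene Gins3, which fell by 0.35 (SE 0.03), the repair gene Rad51ap1, which rose by 0.23 ± 0.03, and the polymerase gene Pold1, which fell by 0.22 (SE 0.03). E2f7 and E2f8, repressors of the same family, rose by 0.30 and 0.37 and are also named after their values were seen. Of the regulators described next, and not of this list, E2f3, E2f5 and E2f6 rose by 0.12, 0.21 and 0.12. E2f4 of those regulators differed by -0.18 (limma, adjusted p = 0.0969). These E2F genes are likewise named after their values were seen.

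Regulators of RB, E2F and MuvB and of the mitotic switch went both ways, with 8 of 25 tested higher and 6 lower (median 0.08). These shares of 32% and 24% stand beside 27.8% and 32.6% of all genes. Rb1, which encodes the RB protein itself, rose by 0.76 ± 0.03 (SE, n = 3 each, adjusted p = 7.76e-06), more than any of the 44 genes above. Ccnh, the cyclin of the CDK-activating kinase, fell by 0.57 (SE 0.04) and its kinase partner Cdk7 rose by 0.16 ± 0.02. The MuvB subunit gene Lin52 fell by 0.30 (SE 0.04). The other MuvB subunit genes went both ways and are named after their values were seen. Lin9 rose by 0.26 ± 0.05, Lin37 and Rbbp4 were called lower, at -0.13 and -0.14, and Lin54 differed by 0.18 (limma, adjusted p = 0.0502).

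The promoter motifs can be set beside the calls. Among tested genes whose windows hold both a CHR and a CCAAT match, leaving out the 47, 283 of 1021 (27.7%) were higher, against 27.1% of all 12540 tested genes with a window. Among the cell cycle genes with both, 10 of 17 were higher and 0 lower in limma, and of the 21 without both, 9 were higher and 1 lower. Of all tested genes with a window, 32.4% were lower. Mcm4 and Gins2, which fell, had no window and are in neither group. Tested genes with an E2F match outside the 47 were higher in 29.7% and lower in 31.1%.

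Markers of cell types also moved with genotype. All 8 epithelial markers, among them Krt8 and Epcam, were well above background on every array of these mammary tumor spheres, and rose in knockout. Their summed signal, relative to the 75th percentile on a linear scale, was 19.7 to 19.8 on hetero and 171 to 174 on knockout arrays. The 7 macrophage markers tested all fell, from a summed 19.1 to 19.6 to 7.38 to 7.47. Of 7 fibroblast markers 5 fell and 1 rose, with sums of 1670 to 1870 on hetero and 1330 to 1380 on knockout arrays. Endothelial sums were 21.5 to 22.3 and 16.1 to 17.3, with 3 of 5 lower and 1 higher, and lymphocyte sums 6.77 to 7.25 and 5.16 to 5.66. Of the 4 lymphocyte markers tested, 3 were well above background on all 6 arrays, and Cd3e of these fell. The other passed the filter only through the knockout arrays, where it was high, and is not counted as a call. The lymphocyte sums include it. Cd3d, Alas2 and Cfd were not well above background, and no probe matched Cd68. Of the erythroid and adipocyte markers none of 1 and 2 tested passed in limma. With scaling to spike-in spots, 72.5% of all genes were called higher and 7.95% lower. Then 6 macrophage markers were lower, 3 fibroblast markers were lower and 2 higher, and 3 endothelial markers were higher and none lower. The 60% of endothelial markers called higher was below the share of all genes, and the direction of that list depends on the scaling. No lymphocyte marker was lower under that scaling, and 2 of 4 were higher, the marker left uncounted above being among the 4. The part of these markers in the cell cycle result was not tested.

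The size and sign of small differences depend on what the arrays are scaled to. Scaled to the spike-in spots, control RNAs added in a fixed amount, the median over all genes moved from -0.03 to 0.39 and every one of the 44 cell cycle genes was called higher, beside 72.5% of all genes. The median was then 0.46 for G1/S and 0.61 for G2/M genes. E2f1, Mcm4 and Gins2 changed sign to 0.23, 0.25 and 0.25. Scaled to each array's median, these 3 genes kept a lower mean in knockout but none passed, and 6 G1/S genes rose and 0 fell in limma (8 of 23 at an unadjusted p below 0.05). Under that scaling 22.0% of all genes were called higher and 22.8% lower, so the 26.1% of G1/S genes that rose was near the share of all genes. The G2/M median stood above the median of all genes under each of the 18 alternative settings.

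**Figure D5:**
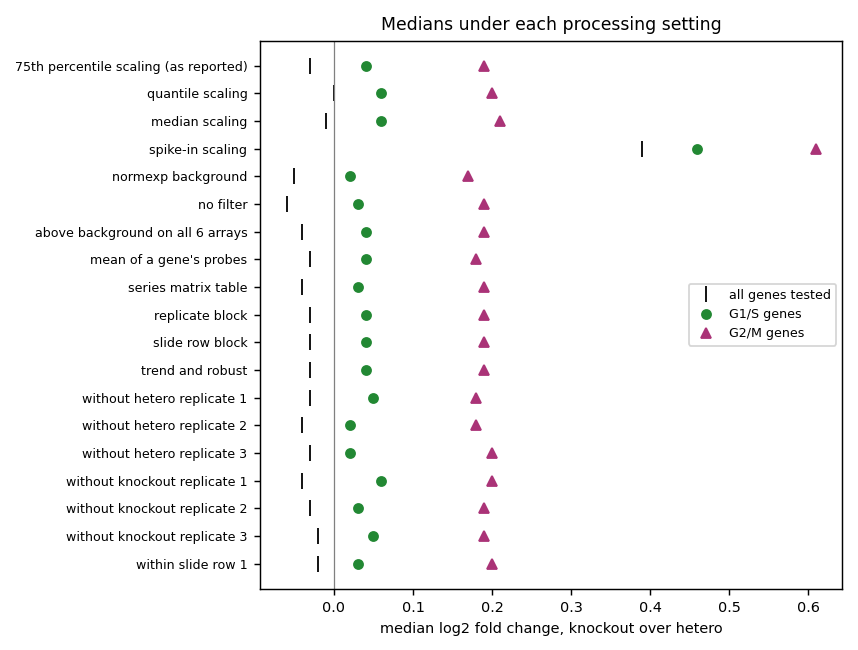
Median log2 fold change of knockout over hetero (horizontal axis) for all genes tested, G1/S genes and G2/M genes under each processing setting (rows). The order, with all genes lowest and G2/M highest, is the same in every row, and scaling to spike-in spots moves all 3 to the right.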

How the data were processed

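Cy3-labelled total RNA of 6 samples was measured on Agilent 1-colour arrays, which share 1 slide and 1 scan. Spot intensities were extracted with Agilent Feature Extraction 10.7.3.1, which subtracted background and spatial trend without scaling between arrays, per the file headers. The deposited series table holds the same intensity divided by 1 constant for each array. The flags used are 0 or 1 values per spot, per the file headers.

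Control spots and 102 to 129 flagged spots per array were left out. Spots of a probe were averaged on the log2 scale, and probes well above background on at least 3 of 6 arrays were kept. Each gene took its brightest kept probe. Probes were named through RefSeq accessions (GRCm38.p6). Knockout was set against hetero in limma 3.58.1 (R 4.3.3, lmFit and then eBayes) without covariates. The fit was also run on simulated data, with 50 genes changed at each size. It recovered 0% of them at 0.1 log2 units, 24% at 0.2, 62% at 0.4 and 80% at 1. Far fewer genes were changed there than are called here, so these rates do not carry over to these data. The precision is limited by 3 arrays per group. Normexp used median spot signals. Probe pairs were fitted over all 35427 kept probes. Genes, lists and tests were chosen with earlier results of these data known. Named in full are, by role, the largest called rise and fall, and Mki67; in the other lists, the 4 smallest p. Some cell type markers are not reported here.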

Additional observations from a re-analysis of the deposited data

How the results depend on the processing

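The direction of the G2/M median held in all 18 alternatives run. Of the 25 cell cycle genes called, 8 were called in the same direction in all 18, namely Mcm7, Rrm1, Rrm2, Ccna2, Plk1, Cdc20, Cenpe and Ube2c. Calls among G1/S genes went from 10 to 6 with median scaling and to 23 with spike-in scaling, and those in the other cell cycle lists from 60 to 38 and 109, while all genes called went from 60.4% to 44.8% and 80.5%. The G1/S median was 0.06 with quantile and 0.46 with spike-in scaling, and the G2/M median 0.61 with spike-in scaling. Calls among G2/M genes went from 15 to 8 within slide row 1, and all genes called from 60.4% to 48.6%. That setting was chosen after seeing the data and has fewer arrays. Leaving out 1 array gave 6 to 7 higher and 3 to 4 lower G1/S genes of 23, and 11 to 13 higher G2/M genes of 21. Of all genes, 24.6% to 25.9% were then higher and 28.9% to 30.8% lower. With the replicate number as a block, 6 G1/S genes were higher and 3 lower, and 11 G2/M genes were higher. Of all genes 8511 were then called, 24.8% higher and 28.9% lower. Same-numbered arrays did not deviate together (correlations of -0.12, -0.02 and -0.01), so the numbers are not taken as a pairing.

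Signs that changed were these, and the cause was not tested. With spike-in scaling the differences were 0.25 for Mcm4, 0.38 for Mcm6, 0.23 for E2f1, 0.33 for Tyms, 0.34 for Uhrf1, 0.25 for Gins2 and 0.32 for Rpa2. With quantile scaling Mcm6 was at 0.02. With normexp, Pola1 was at -0.01, Cdc45 at -0.04 and Ttk at -0.15. With probes averaged, Ccne1 was at -0.25, Uhrf1 at 0.06 and Chaf1b at -0.01, and in the deposited series table Chaf1b was at 0.00. Within row 1, Mcm2 and Pcna were at -0.01, Chaf1b and Kif20a at -0.03. Leaving out 1 array at a time gave 0.00 to 0.02 for Mcm2, -0.01 to 0.04 for Pcna, 0.00 to 0.27 for Cdc6, -0.02 to 0.02 for Chaf1b, 0.00 to 0.04 for Pola1, -0.04 to 0.09 for Cdc45 and -0.04 to 0.07 for Kif20a. Of these genes, Mcm4, E2f1 and Gins2 were called under the settings of the report. Without the filter, Ccne2, Aurkb and Cenpf, not well above background, also had lower means in knockout. Signal over background left 3 of the 47 genes untested.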
